A study of Oryza sativa with 40 samples.

Results

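Rice leaves were sampled after a move to a cooler room, late on the day of the move and again the next morning, and the second sampling was compared with the first. The comparison was made over all 19308 genes of the deposited table and uses 8 of the 40 libraries of the series. It sets the 4 libraries labelled cold at 24 h against the 4 labelled cold at 6 h. Both groups are leaves of Oryza sativa cultivar IR64, with no mutation or transgene named in the labels, from plants grown hydroponically at 30 °C by day and 25 °C by night and then moved to 25 °C by day and 20 °C by night. Leaves that were already full-grown at the move were labelled and their middle section was frozen, so the tissue developed in the warm room. The move fell 3 h into the day. The 24 h leaves were therefore taken 3 h into the following day, after a night at 20 °C, and the 6 h leaves 9 h into the day of the move. Time of day and time spent in the cool room differ together between the groups and cannot be told apart within them. Leaves kept at 30/25 °C (warm) and leaves moved to 40/35 °C (hot) were taken at the same hours, with 4 libraries a group, and share no library with the cold leaves. There were 12 tanks, 4 per temperature. The labels do not say which tank or plant gave which library, so the p-values measure the spread between these libraries.

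In plants a large part of the transcriptome is rhythmic over the day. The oscillator is a loop of repressors: LHY, a MYB-type factor, peaks around dawn, pseudo-response regulators (PRR proteins) follow in sequence through the day, and GIGANTEA (GI) and the evening complex of LUX and ELF3 act towards dusk. Outputs of the loop time the genes of photosynthesis, nitrogen assimilation, starch turnover and water channels. In rice, cold also acts through DREB1 factors, which bind the promoters of cold-response genes, through lipid desaturases, which keep membranes fluid, and through chaperones.

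Total RNA was depleted of ribosomal RNA and sequenced as stranded libraries. The 8 cold libraries held 4738765 to 7280341 reads in genes, and 3 reads in a library corresponded to 0.334 to 0.607 CPM (reads of a gene scaled to library size). Levels are given as scaled CPM, which is 2 to the power of the deposited log2 value and includes the authors' offset of 0.5 read. Levels per gene are not divided by gene length and are not compared between genes. The mean correlation of a library with its group mates was 0.939 to 0.951 at cold 24 h and 0.964 to 0.97 at cold 6 h, so the later group was the more variable. Leaf mesophyll markers took 7.55 to 10.7% of reads at cold 24 h and 4.35 to 7.86% at cold 6 h, and 4 of the 21 markers rose and 1 fell. The number of these markers rising was 2 without cold 6 h replicate 1 or 3 or cold 24 h replicate 2, 3 or 4, and 6 without cold 24 h replicate 1. Guard cell markers took 0.00998 to 0.0155% at cold 24 h and 0.00639 to 0.00836% at cold 6 h. Dividing cell markers took 0.117 to 0.159% at cold 24 h and 0.101 to 0.126% at cold 6 h, and vascular and secondary wall markers took 0.000406 to 0.00148% at cold 24 h and 0.000329 to 0.000621% at cold 6 h. None of the 7 vascular markers passed the test (1 rose without cold 24 h replicate 4), and the part of these marker shares in the results below was not tested. In whole leaf pieces, fewer cells of a type and less RNA per cell cannot be told apart.

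Between the afternoon and the next morning 2931 genes rose (15.2% of those tested) and 2794 fell (14.5%), by limma's moderated test with Benjamini-Hochberg adjusted p under 0.05. Of these, 1824 rose and 1822 fell at least 2-fold. The median change over all genes was -0.03 on the log2 scale. When each library was divided by its total of assigned reads in place of the authors' scaling, the median of all genes shifted by -0.21 and the split became 1991 higher and 3633 lower. Changes below are given on the authors' scaling, in which the median gene is close to 0.

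The gene with the largest fitted rise among well-measured genes with an informative name and groups that did not overlap was annotated as a carboxyvinyl-carboxyphosphonate phosphorylmutase (LOC_Os12g08760, chromosome 12, 4499736 to 4503990 in build IRGSP-1.0). It stood at 1352, 1439, 1460 and 1385 CPM in the cold 24 h libraries, against 19.7, 12.6, 13.7 and 21.9 CPM at cold 6 h. The log2 change was 6.41 ± 0.47 (adjusted p = 3.65e-13), and the 24 h values lay close to each other. An O-methyltransferase gene (LOC_Os07g28040) had 90.3, 78, 120.3 and 105 CPM at 24 h, against 4.34, 2.85, 2.17 and 2.12 CPM at 6 h, and rose by 5.14 ± 0.23 (adjusted p = 3.74e-18). A nodulin MtN3 family gene (LOC_Os01g50460), of the SWEET family of sugar exporters, had 94.6, 139, 81.3 and 70.8 CPM at 24 h, against 3.67, 2.71, 1.61 and 1.72 CPM at 6 h, and rose by 5.35 ± 0.32 (adjusted p = 3.16e-15). No 24 h library overlapped a 6 h library in these genes. The other large rises were a B-box zinc finger gene (LOC_Os06g45040, 5.37 ± 0.42), a cysteine protease precursor (LOC_Os03g54130, 5.69 ± 0.76), a secretory protein gene (LOC_Os05g50500, 5.96 ± 0.64), a pollen Ole e I family gene (LOC_Os10g13850, 5.54 ± 0.57) and a transporter family gene (LOC_Os03g10100, 5.02 ± 1.24). The transporter gene was uneven at 24 h, with 135, 65.3, 9.56 and 11.7 CPM.

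Most of the largest falls were to few reads. A peptide transporter gene (LOC_Os01g65130, chromosome 1, 37804018 to 37808200) had 2, 1, 2 and 0 reads in the cold 24 h libraries, against 763, 1073, 1295 and 636 reads at cold 6 h, and its pooled level was 675-fold lower (95% counting interval 289 to 2081) at 24 h. A pumilio-family RNA-binding gene (LOC_Os12g31000) had 15, 18, 2 and 4 reads at 24 h, against 2575, 4027, 3456 and 3239 reads at 6 h, and was 306-fold lower (95% counting interval 223 to 430) at 24 h. These libraries did not overlap, and the counting intervals cover counting error only. A proton-dependent oligopeptide transporter gene (LOC_Os01g65169) had 11, 3, 1 and 4 reads at 24 h, against 1098, 1626, 1573 and 1008 reads at 6 h. An FAD-dependent oxidoreductase gene (LOC_Os07g34570) had 123, 177, 26.2 and 24 CPM at 24 h, against 6753, 10325, 7613 and 10553 CPM at 6 h, and fell, with a log2 change of -7.15 ± 0.56 (adjusted p = 1.49e-12). A flavin-containing monooxygenase gene (LOC_Os04g14690) was 104-fold lower (95% counting interval 69.1 to 164) and a phosphatidylinositol transfer protein gene (LOC_Os08g38850) was 108-fold lower (95% counting interval 70.4 to 174) at 24 h. Both transporter genes and the monooxygenase gene also fell in warm and hot leaves, with log2 changes of -8.96 in warm leaves and -9.11 in hot leaves for LOC_Os01g65130.

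Most clock genes differed between the samplings by several-fold. Of 13 clock genes measured, 1 rose and 8 fell, and the list's median log2 change was -2.16, beside -0.03 over all genes. In warm leaves 3 of them rose and 7 fell, with a median of -1.88. LHY (LOC_Os08g06110, chromosome 8, 3365730 to 3373434) had 2979, 1985, 1846 and 2226 CPM at cold 24 h, against 329.7, 308, 356 and 354 CPM at cold 6 h. The rise was 2.72 ± 0.22 on the log2 scale (adjusted p = 5.96e-12), with the groups far apart. LUX (LOC_Os01g74020, chromosome 1, 42874207 to 42875515), the DNA-binding member of the evening complex, had 6, 4, 2 and 1 reads at 24 h, against 1193, 1839, 1761 and 1470 reads at 6 h, and was 432-fold lower (95% counting interval 252 to 811) at 24 h. ELF3-2 (LOC_Os01g38530), a scaffold of the same complex, had 7.3, 7.61, 2.13 and 4.69 CPM at 24 h, against 80, 109, 93.2 and 129.9 CPM at 6 h (log2 change -4.39 ± 0.51, adjusted p = 1.53e-08). Its paralogue ELF3-1 (LOC_Os06g05060) did not pass the test, with a log2 change of 0.25 (95% interval -0.04 to 0.54).

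FKF1 (LOC_Os11g34460, chromosome 11, 20182477 to 20187327), a blue-light receptor of the F-box family, had 8.71, 11.8, 1.03 and 1.11 CPM at cold 24 h, against 386, 487, 423 and 443 CPM at cold 6 h, and fell, with a log2 change of -7.04 ± 0.66 (adjusted p = 1.5e-10). GI (LOC_Os01g08700, chromosome 1, 4329152 to 4338485) had 876, 594, 519.7 and 743 CPM at 24 h, against 3013, 3322, 3312 and 2888 CPM at 6 h (log2 change -2.22 ± 0.26, adjusted p = 1.47e-08). Of the PRR genes, PRR59 had 68.5, 89.9, 18.8 and 25.8 CPM at 24 h, against 303, 308, 291 and 373 CPM at 6 h, and fell, with a log2 change of -2.93 ± 0.40 (LOC_Os11g05930, adjusted p = 2.87e-07). All 4 of these 24 h libraries lay below all 4 at 6 h. PRR95 (LOC_Os09g36220) fell, with a log2 change of -2.62 ± 0.33 (adjusted p = 7.79e-08) and PRR1 (LOC_Os02g40510), the rice counterpart of TOC1, fell, with a log2 change of -2.16 ± 0.58 (adjusted p = 0.00411). PRR73, at 998, 1078, 1257 and 1218 CPM at 24 h and 807, 907, 917 and 971 CPM at 6 h, did not pass the test although its groups did not overlap (log2 change 0.33, 95% interval -0.01 to 0.68, adjusted p = 0.14). PRR37 did not pass it either, with -0.39 (95% interval -0.77 to -0.02). ZTL1 (LOC_Os06g47890), a light receptor of the FKF1 family, was the eighth that fell (log2 change -0.39 ± 0.13, adjusted p = 0.0232), and its relative ZTL2 did not pass the test (-0.25, 95% interval -0.55 to 0.05). The change of PRR37 passed the threshold when quantile normalization or division by total reads replaced the authors' scaling, with the same sign.

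**Figure D1:**
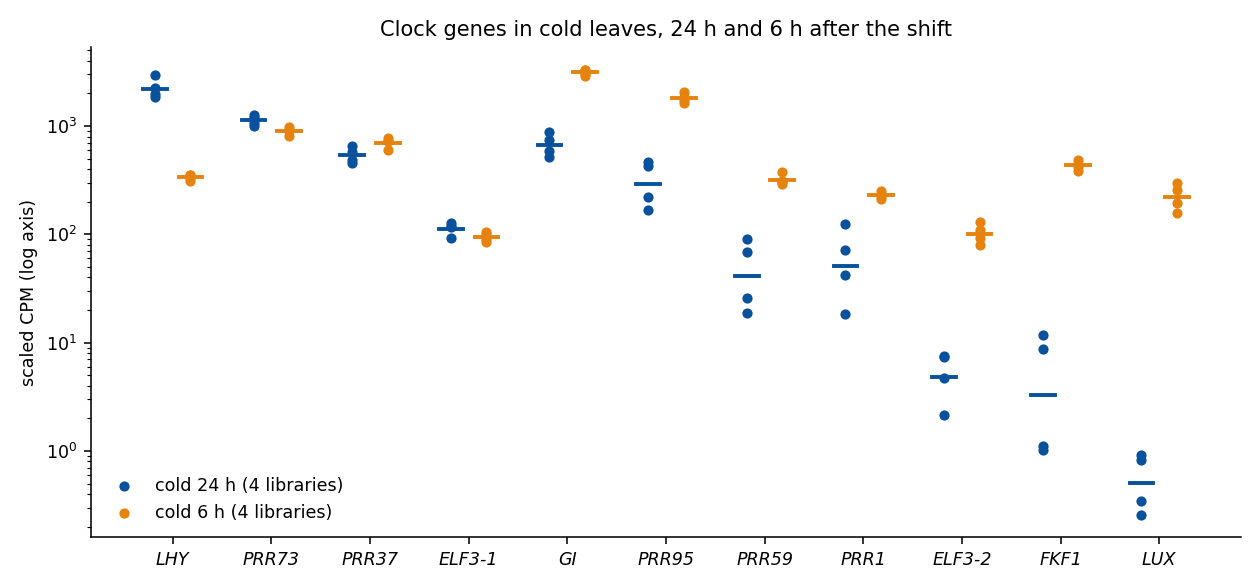
Scaled CPM (log axis) of 11 clock genes in the 4 cold 24 h libraries (blue, left of each pair) and the 4 cold 6 h libraries (orange, right); bars are geometric means. LHY is higher at 24 h, PRR73, PRR37 and ELF3-1 differ little, and the 7 genes on the right are lower at 24 h, with LUX below 1 CPM in each 24 h library.

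Light receptors moved both ways. Of 9 photoreceptor genes, 2 rose and 3 fell, and 0 rose with division by total reads. Without cold 24 h replicate 2 the number rising was 4, and without cold 24 h replicate 1, 3 or 4 or cold 6 h replicate 1, 3 or 4 it was 1. PHYC (LOC_Os03g54084) had 65.1, 47, 58.5 and 62.5 CPM at 24 h, against 146, 169, 168 and 174 CPM at 6 h (log2 change -1.50 ± 0.23, adjusted p = 2.86e-06), and PHYB (LOC_Os03g19590) changed by -1.27 ± 0.25 (adjusted p = 0.000153). The third that fell was CRY2 (LOC_Os02g41550, -0.74), and those that rose were CRY1A (LOC_Os02g36380, 0.52) and PHOT2 (LOC_Os04g23890, 0.40), each by less than 2-fold. B-box zinc finger genes, transcription factors of light and flowering responses, moved both ways, 10 rising and 11 falling of 30. LOC_Os06g45040 had 67.1, 88.1, 29.8 and 49 CPM at 24 h, against 2.47, 0.765, 1.72 and 0.91 CPM at 6 h. LOC_Os09g33550 had 2, 0, 1 and 0 reads at 24 h, against 93, 89, 114 and 65 reads at 6 h, and was 108-fold lower (95% counting interval 36.6 to 525) at 24 h. Among genes with a mean log2 value of at least 1, the number falling was 6.

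Among genes of light capture and carbon fixation more rose than fell by the next morning. In the list of light harvesting and photosystem genes 11 of 43 rose and 3 fell, beside 15.2% and 14.5% over all genes. The median log2 change was 0.57 (18 and 3 in warm leaves, median 0.88). Photosystem I subunit N (LOC_Os12g08770) had 729, 1290, 1074 and 1186 CPM at 24 h, against 151, 244, 136 and 283 CPM at 6 h, and rose by 2.43 ± 0.31 (adjusted p = 9.95e-08). The members that fell were 2 genes annotated as oxygen-evolving enhancer protein 3, LOC_Os02g36850 (-3.58 ± 0.47) and LOC_Os07g01480 (-3.03 ± 0.40), and a chlorophyll a/b binding protein gene (LOC_Os09g26810, -2.02 ± 0.60). The number of risers in this list was 5 without cold 6 h replicate 1, 3 or cold 24 h replicate 4, 7 without cold 24 h replicate 2 or 3, and 6 with the sequencing lane as a term. Counts of 5 and 6 of 43 lie below the share of risers over all genes. Leaving out cold 6 h replicate 1 leaves a comparison within 1 lane.

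In the Calvin-Benson cycle 18 of 44 genes rose and 3 fell, with a median of 0.65 (25 and 2 in warm leaves, median 0.90). RCA (LOC_Os11g47970, chromosome 11, 28934294 to 28936340), Rubisco activase, had 25858, 42475, 33733 and 40777 CPM at 24 h, against 5725, 7972, 6203 and 12684 CPM at 6 h, and rose by 2.18 ± 0.31 (adjusted p = 6.5e-07). Its 24 h libraries were all above those of 6 h. A fructose-bisphosphate aldolase gene (LOC_Os11g07020) had 11496, 21660.1, 18164 and 22479 CPM at 24 h, against 5892, 6721, 4864 and 9198 CPM at 6 h, and rose by 1.46 ± 0.32 (adjusted p = 0.000472). A phosphoglycerate kinase gene (LOC_Os06g45710) had 15.1, 20.3, 40.6 and 37.6 CPM at 24 h, against 5.94, 3.13, 2.28 and 4.55 CPM at 6 h, and rose by 2.81 ± 0.46 (adjusted p = 8.03e-06). In warm leaves this gene did not pass the test (log2 change 0.24, adjusted p = 0.725), and in hot leaves it rose by 1.27 (adjusted p = 0.0234). The difference between its cold and warm changes did not pass the threshold (adjusted p = 0.963). Of 19 photorespiration genes, 3 rose and 4 fell, beside 15.2% and 14.5% over all genes. The mitochondrial serine hydroxymethyltransferase gene LOC_Os03g52840, whose enzyme works with glycine decarboxylase, had 4136, 6052, 5447 and 6441 CPM at 24 h, against 1286, 1454, 1138 and 1895 CPM at 6 h (1.94 ± 0.21, adjusted p = 2.25e-09), while a hydroxyacid oxidase gene, LOC_Os04g53214, fell, with a log2 change of -1.91 ± 0.27 (adjusted p = 8.57e-07).

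Pigment synthesis had 7 risers and 3 fallers among 24 genes. A phytoene synthase gene (LOC_Os12g43130), for the first committed step to carotenoids, had 360.2, 863, 343 and 400.2 CPM at 24 h, against 68.7, 39.7, 34.4 and 30 CPM at 6 h, and rose by 3.47 ± 0.36 (adjusted p = 1.34e-09). Replicate 2 stood above the other 24 h libraries in this gene. A uroporphyrinogen decarboxylase gene (LOC_Os03g21900) rose by 1.97 ± 0.28 and chlorophyllide a oxygenase (LOC_Os10g41780), which makes chlorophyll b, by 1.85 ± 0.22. Without cold 24 h replicate 2 the number of risers was 4. Loci of the nuclear genome annotated with chloroplast-encoded products, whose reads cannot be told apart from those of plastid copies, had 3 rising and 2 falling of 104. Of these, LOC_Os05g01675 (photosystem I P700 apoprotein A1) fell, with a log2 change of -1.18 ± 0.43, and lost its call without 1 of 6 of the 8 libraries, all but cold 6 h replicate 3 and cold 24 h replicate 1 (adjusted p up to 0.0781). LOC_Os10g21312 (30S ribosomal protein S18) had 4, 7, 8 and 20 reads at 24 h, against 0, 3, 3 and 0 reads at 6 h. Without cold 6 h replicate 4 or cold 24 h replicate 3 the list had 5 risers, without cold 6 h replicate 2 or 4 or cold 24 h replicate 3 or 4 it had no faller, and without cold 6 h replicate 1 or 3 or cold 24 h replicate 1 it had 1 faller. The mesophyll marker share given above moved in the same direction as the photosynthesis lists. The markers share genes with those lists, RCA and LOC_Os09g26810 among them, so this is not a separate observation. The part of the marker share in the lists was not tested.

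**Figure D2:**
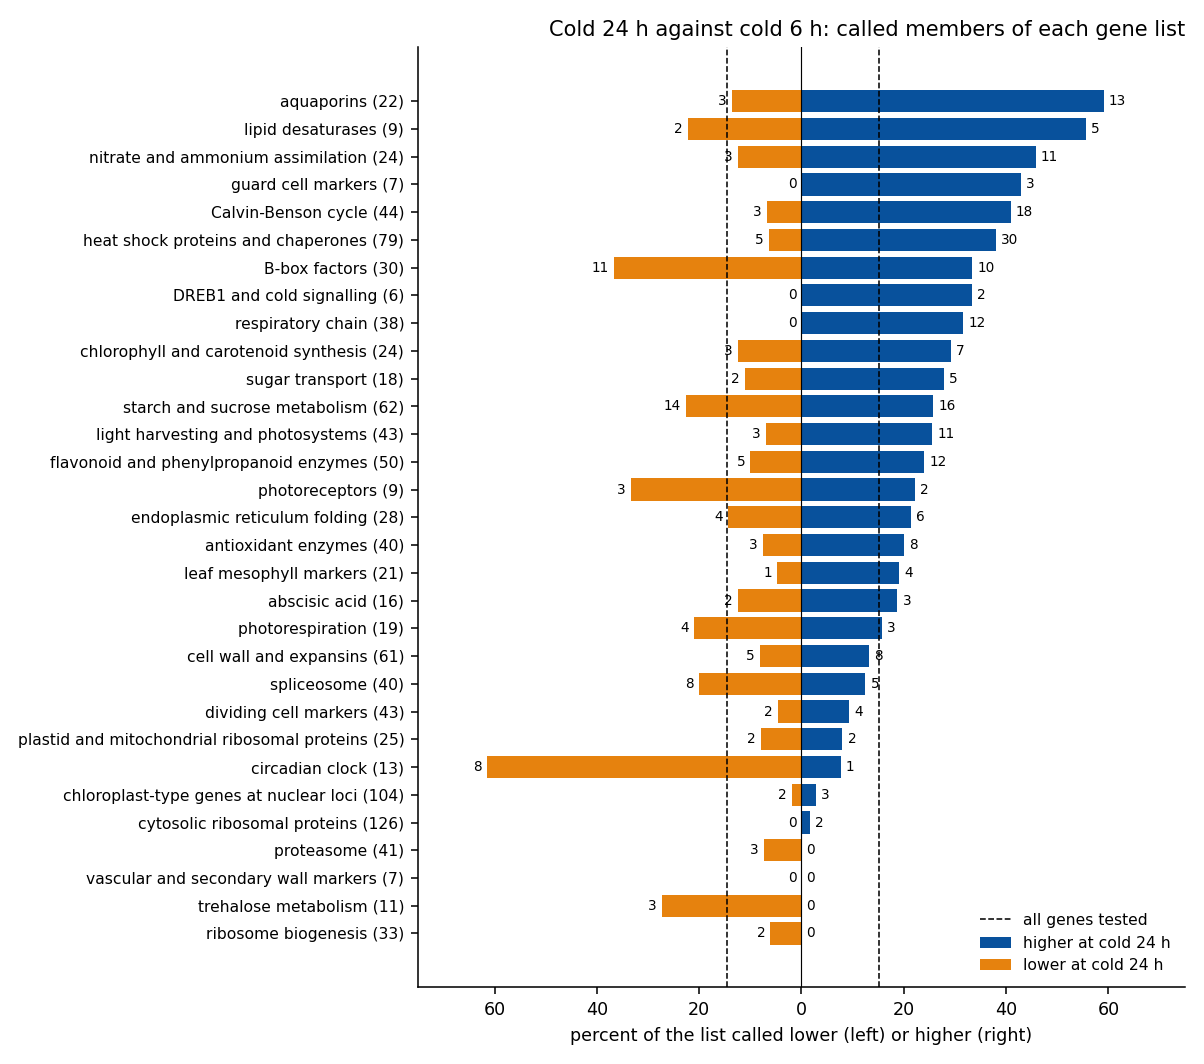
Percent of each gene list (number measured in brackets) called higher (blue, right) or lower (orange, left) at cold 24 h against cold 6 h, with the count at each bar end; dashed lines are the percents over all genes tested, 15.2 higher and 14.5 lower. Aquaporins, desaturases, nitrogen assimilation, guard cell markers, the Calvin-Benson cycle and chaperones extend farthest right and the clock list farthest left.

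Of 24 genes of nitrate and ammonium assimilation 11 rose and 3 fell, with a median of 0.77 (11 and 4 in warm leaves, median 0.91). An ammonium transporter gene (LOC_Os04g43070) had 232, 205, 334 and 379 CPM at 24 h, against 24.5, 14.5, 15.6 and 7.38 CPM at 6 h, a rise of 4.29 ± 0.29 (adjusted p = 3.81e-14). NIA1 (LOC_Os08g36480), nitrate reductase, had 857, 846, 655 and 422 CPM at 24 h, against 507, 226, 205 and 71.1 CPM at 6 h, and rose by 1.73 ± 0.40 (adjusted p = 0.00108). The groups of NIA1 overlapped, since 1 library at 6 h lay above 1 at 24 h. The glutamine synthetase gene LOC_Os02g50240, for the enzyme that fixes ammonium, rose by 2.17 ± 0.23. A glutamate synthase gene (LOC_Os05g48200) had 21.9, 12.9, 15.1 and 12.7 CPM at 24 h, against 278, 939, 475 and 829 CPM at 6 h, and fell, with a log2 change of -5.22 ± 0.53 (adjusted p = 7.92e-10).

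Starch and sucrose genes moved both ways, 16 rising and 14 falling of 62. Without cold 24 h replicate 3 the number falling was 9. A beta-amylase gene (LOC_Os03g22790), of the family that degrades starch to maltose, had 136, 92, 89 and 66 reads at 24 h, against 21, 5, 8 and 2 reads at 6 h, and was 11.9-fold higher (95% counting interval 8.42 to 17.2) at 24 h. GBSSII (LOC_Os07g22930), the leaf form of granule-bound starch synthase, had 1405, 2513, 1212 and 1529 CPM at 24 h, against 884, 556, 502 and 968 CPM at 6 h (1.19 ± 0.32, adjusted p = 0.00408). These groups did not overlap. A neutral invertase gene (LOC_Os01g22900), which cleaves sucrose, had 102, 227, 19 and 22.9 CPM at 24 h, against 1446, 1937, 1609 and 2085 CPM at 6 h, a log2 change of -4.95 ± 0.68 (adjusted p = 4.29e-07). Trehalose metabolism had no riser and 3 fallers of 11, led by the trehalose-6-phosphate synthase gene LOC_Os02g54820 (-2.19 ± 0.48) and the trehalose synthase gene LOC_Os09g23350 (-1.95 ± 0.39). Of 18 sugar transport genes, 5 rose and 2 fell, and the number rising was 3 with division by total reads. The SWEET gene LOC_Os01g50460 rose most, and LOC_Os08g42350 of the same family had 0, 1, 0 and 0 reads at 24 h, against 33, 6, 27 and 4 reads at 6 h.

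More chaperone genes rose than fell. Of 79 heat shock protein and chaperone genes, 30 rose and 5 fell in cold leaves, with a median of 0.35, while 24 rose and 3 fell in warm leaves. Without cold 24 h replicate 2 the number falling in cold leaves was 3. That median was 0.58 without cold 24 h replicate 1 and 0.53 without cold 6 h replicate 4, and 0.15 with division by total reads, where 27 rose and 5 fell. By product name, 10 of 17 DnaK (HSP70) genes rose and none fell, 6 of 20 genes of the HSP20 class were higher and 1 lower, and 4 of 19 heat stress transcription factor genes rose and 4 fell. A DnaK gene (LOC_Os01g62290) had 237, 237, 308 and 236 CPM at 24 h, against 20.8, 9.94, 19 and 13.6 CPM at 6 h, and rose by 4.06 ± 0.44 (adjusted p = 4.27e-09). HSP101 (LOC_Os05g44340), which resolves protein aggregates, had 28.7, 34.9, 32.1 and 26.3 CPM at 24 h, against 4.07, 5.49, 3.84 and 5.36 CPM at 6 h, and rose by 2.71 ± 0.30 (adjusted p = 6.12e-09). No library of 1 group fell among those of the other in these genes. A small heat shock protein gene (LOC_Os02g54140) had 99, 131, 114 and 89 reads at 24 h, against 4, 3, 6 and 3 reads at 6 h, and was 30.2-fold higher (95% counting interval 18.4 to 53.3) at 24 h. A heat stress transcription factor gene (LOC_Os01g53220) had 2, 5, 1 and 1 reads at 24 h, against 207, 258, 321 and 218 reads at 6 h, and was 100-fold lower (95% counting interval 52.5 to 219) at 24 h.

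In the endoplasmic reticulum folding list 6 of 28 genes rose and 4 fell, beside 15.2% and 14.5% over all genes, with a median of -0.02. GRP94 (LOC_Os06g50300), the HSP90 of that compartment, had 367, 326, 243 and 165 CPM at 24 h, against 102, 87.3, 107 and 88.5 CPM at 6 h, and rose by 1.46 ± 0.24 (adjusted p = 9.67e-06). BIP1 (LOC_Os02g02410, chromosome 2, 838717 to 842672), its HSP70, had 168, 123, 113 and 85.7 CPM at 24 h, against 93.5, 47.9, 65.4 and 34.5 CPM at 6 h, and rose by 1.08 ± 0.29 (adjusted p = 0.00388), with 1 overlapping library and no call when libraries were divided by total reads. Both calreticulin precursor genes, LOC_Os07g14270 and LOC_Os04g32950, rose as well, by 1.08 ± 0.22 and 1.03 ± 0.21. GRP94 also rose in warm leaves (0.75, adjusted p = 0.0152), where BIP1 did not pass the test (0.07, adjusted p = 0.883). The protein disulfide isomerase gene PDIL1-2 (LOC_Os04g35600) had 2, 7, 20 and 13 reads at 24 h, against 37, 32, 37 and 21 reads at 6 h, and fell, with a log2 change of -1.76 ± 0.40 (adjusted p = 0.000712). PDIL1-1 (LOC_Os11g09280), of the same family, fell, with 118, 92.8, 98.9 and 63.5 CPM at 24 h, against 236, 237, 217 and 274 CPM at 6 h (-1.40 ± 0.21, adjusted p = 1.5e-06).

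**Figure D3:**
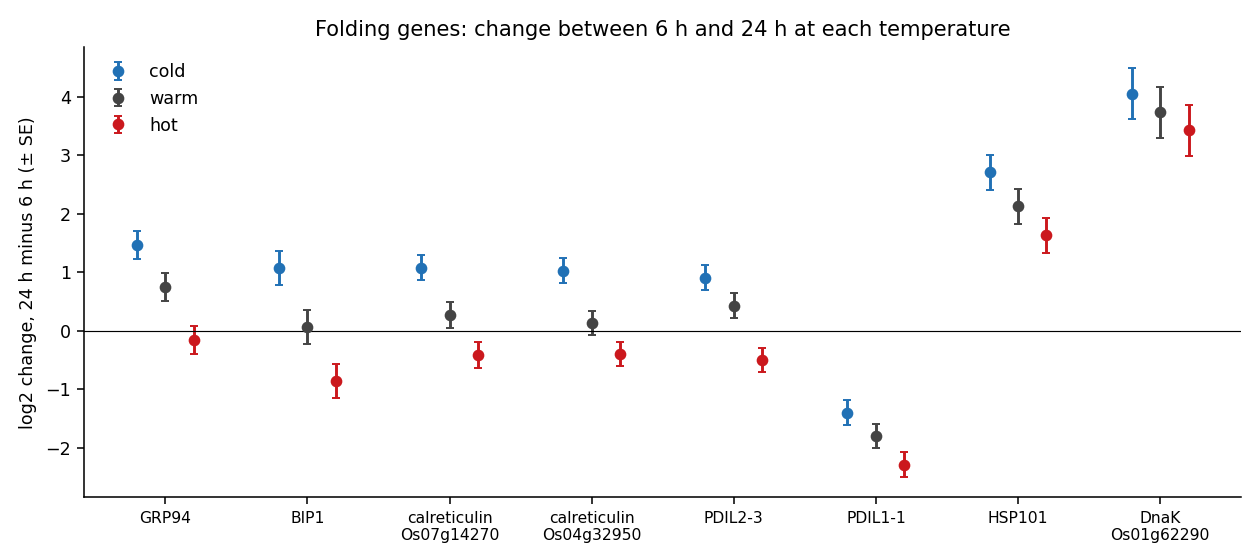
Log2 change between 6 h and 24 h (24 h minus 6 h, ± SE of the fit, 4 libraries a group) of 8 folding genes in cold, warm and hot leaves. GRP94, BIP1 and both calreticulin genes lie above 0 in cold leaves and near or below 0 in hot leaves, whereas HSP101 and the DnaK gene lie above 0 at each temperature.

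Of 6 genes of DREB1 and cold signalling, 2 rose: MYBS3 (LOC_Os10g41200), a MYB factor of the slow cold response of rice, with 142, 118, 175 and 168 CPM at 24 h, against 56.5, 68.1, 53.8 and 48.2 CPM at 6 h (1.41 ± 0.19, adjusted p = 2.11e-07), and ICE2 (LOC_Os01g70310), an activator of DREB1 genes, by 0.87 ± 0.24 (adjusted p = 0.00487). In warm leaves 2 genes of this list rose and in hot leaves 2, ICE2 among them with log2 changes of 1.22 and 1.45. For MYBS3 the cold change minus the warm one was -0.36 (95% interval -0.89 to 0.18). Its cold change minus the hot one was -0.76 (95% interval -1.30 to -0.23, adjusted p = 0.0929), and neither difference passed the threshold. DREB1A (LOC_Os09g35030) had 13, 20, 2 and 0 reads at 24 h, against 4, 13, 3 and 4 reads at 6 h. DREB1B (LOC_Os09g35010) had 6, 2, 1 and 2 reads at 24 h, against 2, 5, 6 and 4 reads at 6 h. Neither gene passed the test, with log2 changes of -0.23 (95% interval -2.76 to 2.30) and -0.54 (95% interval -3.66 to 2.57) and overlapping groups. The sign of the DREB1A change depended on the setting. Of 9 lipid desaturase genes, 5 rose and 2 fell, with a median of 0.92 (6 and 1 in warm leaves, median 0.95). FAD7 (LOC_Os03g18070), the plastid omega-3 desaturase that makes trienoic fatty acids, had 265, 356, 341 and 359 CPM at 24 h, against 29.8, 22.5, 33.3 and 30 CPM at 6 h, and rose by 3.52 ± 0.40 (adjusted p = 1.16e-08). The groups were far apart. A second omega-3 desaturase gene (LOC_Os11g01340) fell, with a log2 change of -1.65 ± 0.56 (adjusted p = 0.0226), a call that was lost without cold 6 h replicate 1 or 3 or cold 24 h replicate 2, with adjusted p up to 0.0903.

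Of 16 abscisic acid genes, 3 rose and 2 fell, near the 15.2% and 14.5% over all genes. In warm leaves 2 of them rose and 2 fell, and in hot leaves 1 rose and 2 fell. One that rose, SNAC1 (LOC_Os03g60080, 1.97 ± 0.71), a stress-responsive NAC factor, lost its call without cold 6 h replicate 1, 2 or 3 or cold 24 h replicate 2 or 4, with adjusted p up to 0.142. The PP2C phosphatase genes PP2C30 (LOC_Os03g16170, -2.44 ± 0.69) and PP2C50 (LOC_Os05g46040, -1.55 ± 0.26), which restrain the hormone's signal, fell, and NCED1 (LOC_Os02g47510), which cleaves carotenoids towards the hormone, had 1215, 693, 1422 and 1973 CPM at 24 h, against 402, 607, 330.2 and 353 CPM at 6 h (1.59 ± 0.34, adjusted p = 0.000408). PP2C30 also fell in warm leaves (-2.67) and in hot leaves (-2.23). Of 22 aquaporin genes, for water channels, 13 rose and 3 fell, with a median of 1.17 (12 and 3 in warm leaves, median 0.996). LOC_Os07g26660 had 29, 26, 6 and 5 reads at 24 h, against 1, 0, 2 and 0 reads at 6 h. LOC_Os02g44630 had 771, 752, 723 and 708 CPM at 24 h, against 153, 146, 96 and 128 CPM at 6 h, and rose by 2.52 ± 0.22 (adjusted p = 2.97e-11). LOC_Os05g14240 went the other way, with 14, 15.9, 5.02 and 3.5 CPM at 24 h, against 504, 727, 567 and 575 CPM at 6 h (-6.22 ± 0.39, adjusted p = 8.68e-15), and so did LOC_Os09g36930, with 104, 187, 89.2 and 115 CPM at 24 h, against 807, 987, 932 and 1058 CPM at 6 h. The guard cell list had 3 risers of 7, among them the potassium channel genes KAT1 (LOC_Os02g14840, 2.36 ± 0.23) and AKT2/3 (LOC_Os05g35410, 1.60 ± 0.19). In warm leaves it had 3 risers as well. The guard cell share of reads given above is that of the same 7 genes and is not a separate observation.

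In the respiratory chain 12 of 38 genes rose and none fell, with a median of 0.20, but with division by total reads 3 rose and the median was -0.01. The largest rise was of LOC_Os01g61410, annotated as a mitochondrial NADH-ubiquinone oxidoreductase, with 37.2, 63.5, 36.4 and 37.6 CPM at 24 h, against 14.6, 14.5, 12.3 and 12.6 CPM at 6 h (1.65 ± 0.23, adjusted p = 7.34e-07). LOC_Os10g42840, a subunit of complex I, rose by 0.90 ± 0.21 (adjusted p = 0.00106). Of 4 alternative respiration genes, the external NADH dehydrogenase LOC_Os06g47000 rose by 0.66 ± 0.18, a call lost with division by total reads. AOX1A (LOC_Os04g51150), the alternative oxidase that is induced by cold in many plants, did not pass the test, with 4.75, 6.14, 3.64 and 3.67 CPM at 24 h, against 5.01, 2.43, 2.84 and 3.74 CPM at 6 h (log2 change 0.40, 95% interval -0.33 to 1.12). The deposited table names that locus a transposon protein, so its identity rests on the locus number. Antioxidant enzymes had 8 risers and 3 fallers of 40, with 5 risers without cold 24 h replicate 2. A glutathione reductase gene (LOC_Os10g28000) fell, with a log2 change of -1.59 ± 0.51 (adjusted p = 0.0158), and lost its call without cold 6 h replicate 1 (adjusted p = 0.0577) and with lane as a term. The chloroplast superoxide dismutase gene LOC_Os06g05110 had 19.9, 25.4, 27.7 and 24 CPM at 24 h, against 50.4, 58.8, 55.5 and 69.7 CPM at 6 h, and fell, with a log2 change of -1.27 ± 0.21 (adjusted p = 7.41e-06).

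Flavonoid and phenylpropanoid enzymes had 12 risers and 5 fallers of 50. The flavonol synthase gene LOC_Os08g37456 had 6, 6, 3 and 5 reads at 24 h, against 111, 136, 108 and 71 reads at 6 h. A dihydroflavonol-4-reductase gene (LOC_Os06g46920) had 1, 5, 0 and 3 reads at 24 h, against 17, 12, 12 and 11 reads at 6 h. Cell wall and expansin genes had 8 risers and 5 fallers of 61, both below the 15.2% and 14.5% over all genes, with a median of -0.21. The largest changes were in 2 genes. The beta-expansin gene LOC_Os09g29690 had 3, 18, 4 and 5 reads at 24 h, against 0, 1, 0 and 0 reads at 6 h (no call with log2 of CPM plus 1). The glycosyl hydrolase family 16 gene LOC_Os06g48200 fell, with a log2 change of -3.69 ± 0.90. With a mean log2 value of at least 1 required, 4 cell wall genes rose. Spliceosome genes had 5 risers and 8 fallers of 40, beside 15.2% and 14.5% over all genes. They had 5, 5 and 4 fallers without cold 6 h replicate 3, cold 24 h replicate 1 and cold 24 h replicate 2. A U5 snRNP helicase gene (LOC_Os03g53220) had 7, 1, 2 and 0 reads at 24 h, against 25, 37, 43 and 18 reads at 6 h. The U2AF gene LOC_Os09g31482, of the factor that recognises the 3' splice site, had 186, 226, 226 and 198 CPM at 24 h, against 53.6, 29.8, 46.8 and 30.8 CPM at 6 h (2.42 ± 0.27, adjusted p = 6.68e-09). A PRP8 gene (LOC_Os05g07050), of the catalytic core, had 247, 276, 262 and 309 CPM at 24 h, against 676, 688, 682 and 859.8 CPM at 6 h (-1.41 ± 0.14, adjusted p = 3.41e-10).

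In the fit over all 40 libraries, lists of protein turnover and growth had few calls, below the percents over all genes. Of 126 cytosolic ribosomal protein genes 2 rose and none fell. One of them, annotated as L44 (LOC_Os07g33997), had 28, 2.29, 2.96 and 2.81 CPM at 24 h, against 1.4, 0.904, 1.39 and 1.11 CPM at 6 h, and its call was lost without cold 24 h replicate 1, where the log2 change was 1.17 and the adjusted p 0.0894. The other, L19-3 (LOC_Os03g21940, 0.62 ± 0.20), lost its call without cold 6 h replicate 2 (adjusted p = 0.055). In plastid and mitochondrial ribosomal proteins 2 of 25 rose and 2 fell, in ribosome biogenesis none of 33 rose and 2 fell, in the proteasome none of 41 rose and 3 fell, and among dividing cell markers 4 of 43 rose and 2 fell. Without cold 24 h replicate 1, 4 proteasome genes rose and 2 fell, and 1 rose and 2 fell without cold 6 h replicate 4. Among dividing cell markers 2 rose without cold 6 h replicate 2 or 3 or cold 24 h replicate 2 or 3, and 1 fell without cold 24 h replicate 1. In the organellar ribosomal list no gene fell without cold 6 h replicate 2 or 4 or cold 24 h replicate 1 or 2, 1 fell without any 1 of the other 4 libraries, and 1 rose without cold 24 h replicate 2. The proteasome subunit gene LOC_Os02g10640 fell, with a log2 change of -0.72 ± 0.15 (adjusted p = 0.000294). Another, LOC_Os10g05180 (-0.94 ± 0.34), lost its call without cold 6 h replicate 1 or 2 or cold 24 h replicate 3 or 4, with adjusted p up to 0.138. Of the organellar ribosomal genes, L17 (LOC_Os03g60100, 1.25 ± 0.34) rose and lost its call without cold 24 h replicate 2 (adjusted p = 0.0511). LOC_Os03g63950 (-1.75 ± 0.59), a plastid-specific 30S protein, fell and lost its call without cold 6 h replicate 2 or 4 or cold 24 h replicate 1 or 2, with adjusted p up to 0.124. Of the dividing cell markers, a core histone gene (LOC_Os09g39730) had 1, 0, 1 and 0 reads at 24 h, against 5, 17, 12 and 7 reads at 6 h. A histone H3 gene (LOC_Os01g64640, 1.79 ± 0.63) rose and lost its call without cold 6 h replicate 2 or 3 or cold 24 h replicate 2 or 3, with adjusted p up to 0.12.

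In ribosome biogenesis, a nucleolar complex protein gene (LOC_Os04g49580) fell, with a log2 change of -1.06 ± 0.28 (adjusted p = 0.00351). The pre-rRNA-processing gene TSR2 (LOC_Os08g39820) had 9.28, 7.61, 6.26 and 6.73 CPM at 24 h, against 22.6, 22.7, 23.6 and 24.6 CPM at 6 h (-1.66 ± 0.32, adjusted p = 9.29e-05). Fitted on the 8 cold libraries alone, 12 of 126 cytosolic ribosomal protein genes rose and 9 of 33 ribosome biogenesis genes fell. That fit called 3162 of all 19308 genes higher and 3258 lower. The ribosomal protein count lay below that share and the ribosome biogenesis count above it. With division by total reads, risers and fallers were 8 and 8 for flavonoid enzymes, 7 and 6 for pigment synthesis, 3 and 11 for the spliceosome, 7 and 5 for antioxidant enzymes, 3 and 7 for chloroplast-type loci, 0 and 6 for the proteasome and 0 and 5 for ribosome biogenesis.

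Warm leaves, which stayed at 30/25 °C, give the change between the same hours without a move. There 2989 genes rose (15.5%) and 3301 fell (17.1%). Of the 2931 genes that rose in cold leaves, 2174 also rose in warm leaves, which is 74.2% of the cold and 72.7% of the warm genes. Of the 2794 that fell in cold leaves, 2085 also fell in warm leaves, 74.6% of the cold and 63.2% of the warm genes. No gene was called in opposite directions in cold and warm leaves. Over all 19308 genes the cold and warm changes had a Pearson correlation of 0.873, as a description across genes that are not independent.

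The test of the difference itself, cold change minus warm change, called 0 genes (0%) with limma at adjusted p under 0.05, and 995 genes had an unadjusted p under 0.05. The count was also 0 with voom weights and with only the 4 groups concerned. LHY came nearest. Its geometric means were 1171, 336 and 2220.2 CPM in cold leaves at 2, 6 and 24 h, and 4116, 870.3, 142 and 2965 CPM in warm leaves at 0, 2, 6 and 24 h. The difference of its changes was -1.66 ± 0.32 (95% interval -2.30 to -1.01, adjusted p = 0.149). Without warm 6 h replicate 1 it was -1.85 with an adjusted p of 0.0234, the 1 gene then called. RCA had a difference of -1.18 ± 0.43 (95% interval -2.07 to -0.30) and BIP1 of 1.01 ± 0.41 (95% interval 0.18 to 1.83), and neither passed the adjusted threshold. FAD7 had -1.05 ± 0.57 (95% interval -2.21 to 0.11). The interval of the difference is for single genes and not adjusted. It lay within 1 log2 unit of 0 for 7428 genes, and its median half-width over all genes was 0.867. Smaller differences were not resolved in a typical gene, and larger ones did not pass the adjusted threshold either. The phosphoglycerate kinase gene LOC_Os06g45710 had 2.57 ± 0.65 (95% interval 1.25 to 3.88, adjusted p = 0.963). The count of 0 therefore does not show that the cold and warm changes were alike. Cold and warm libraries share no sequencing lane, so lane and temperature cannot be told apart where cold and warm levels are compared. The difference of changes is taken between hours within each temperature, and with lane as a term its count was also 0. All cold 24 h libraries and cold 6 h replicates 2 to 4 were in lane 4 and cold 6 h replicate 1 in lane 3. The warm libraries of 24 h and 6 h were split over 2 lanes by replicate number.

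**Figure D4:**
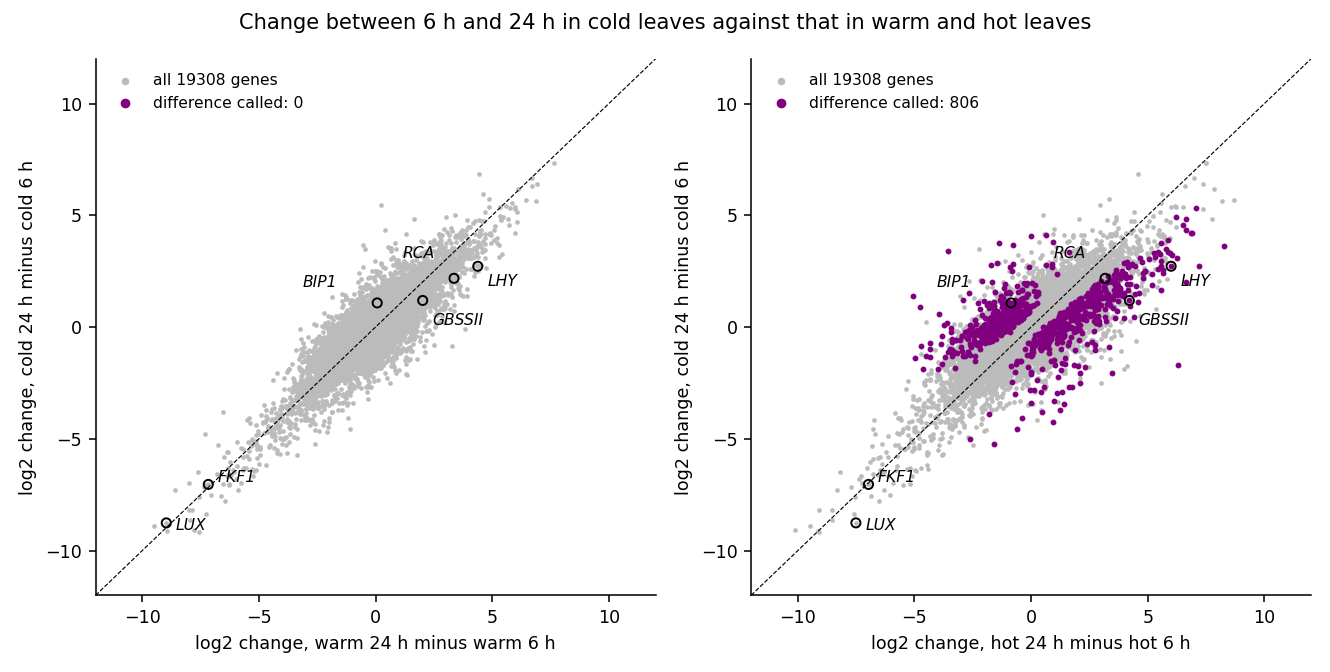
Log2 change (24 h minus 6 h) of each of 19308 genes in cold leaves (vertical) against warm leaves (left panel) and hot leaves (right panel); the dashed line marks equal change and purple points are genes whose changes differ at adjusted p under 0.05. No gene is purple against warm leaves and 806 are against hot leaves, among them LHY, GBSSII and BIP1.

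**Figure D5:**
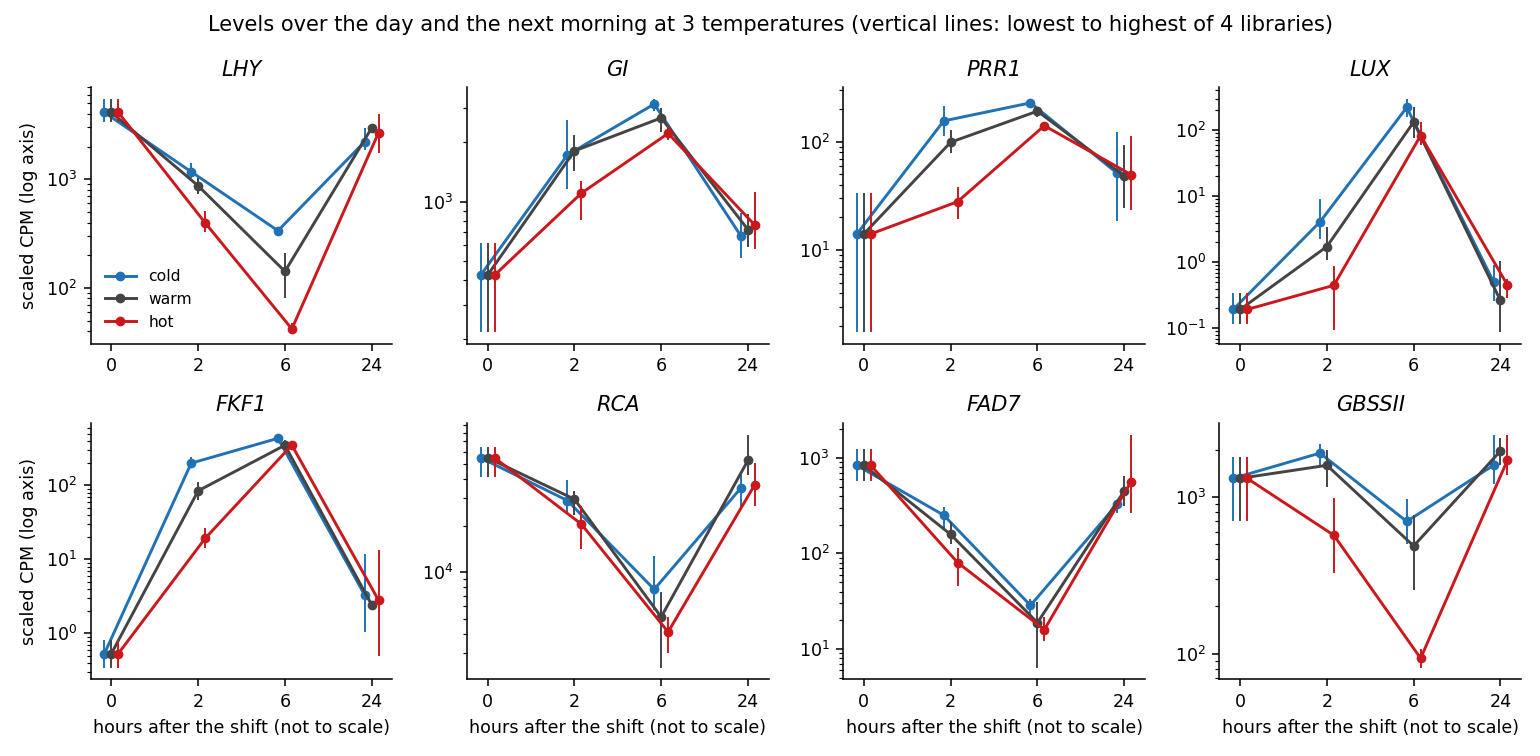
Geometric mean scaled CPM (log axis) of 8 genes at 0, 2, 6 and 24 h after the move in cold (blue), warm (grey) and hot (red) leaves, with the same warm 0 h libraries starting each line; vertical lines run from the lowest to the highest of 4 libraries. At 6 h LHY stood highest in cold and lowest in hot leaves, and at 24 h the ranges of cold and hot leaves overlapped.

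Against hot leaves, moved to 40/35 °C, the course differed in more genes. In hot leaves 4148 genes rose (21.5%) and 4186 fell (21.7%) between 6 h and 24 h. Of the cold genes, 2185 of the risers (74.5% of the cold and 52.7% of the hot genes) and 1985 of the fallers (71% and 47.4%) were called the same way in hot leaves, and 30 and 22 the opposite way. The difference of changes, cold minus hot, was called for 806 genes (4.17%), 351 with the cold change above the hot one and 455 below it. With division by total reads 318 lay above and 273 below. The count was 466 without hot 24 h replicate 1, 2071 without hot 24 h replicate 2, 530 without hot 6 h replicate 2, 517 without cold 24 h replicate 3 and 492 without cold 24 h replicate 4. The hot 24 h libraries correlated with their mates at 0.894 to 0.932, less than those of cold 24 h, and without replicates 1 and 2 of them the count was 1509. Mesophyll markers took 19.8% of reads in hot 24 h replicate 1 and 8.64 to 9.78% in the other hot 24 h libraries, and the part of this in the counts was not tested.

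Among clock genes the difference was called in LHY, ZTL1 (-0.88 ± 0.19) and ZTL2 (-0.85 ± 0.21), each with the cold change below the hot one. For LHY the geometric means in hot leaves were 398, 42 and 2689.5 CPM at 2, 6 and 24 h, and the cold change minus the hot change was -3.28 ± 0.32 on the log2 scale (adjusted p = 2.96e-08). At 6 h cold leaves had 336 CPM. GBSSII likewise had 699 CPM in cold and 93.2 CPM in hot leaves at 6 h, and 1599 CPM in cold and 1719 CPM in hot leaves at 24 h (cold minus hot -3.01 ± 0.45, adjusted p = 0.000207). A sucrose-phosphate synthase gene (LOC_Os01g69030), for sucrose synthesis, had -2.97 ± 0.26 (adjusted p = 4.35e-09). The phytoene synthase gene LOC_Os12g43130 (-2.29 ± 0.51) and the SWEET gene LOC_Os01g50460 (-1.70 ± 0.46) also changed less in cold than in hot leaves. In the other clock genes LUX, GI and FKF1 the difference did not pass the threshold, with -1.25 ± 0.88, -0.68 ± 0.37 and -0.06 ± 0.94.

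Folding genes of the endoplasmic reticulum differed in the other direction. GRP94 had a cold change above its hot one by 1.62 ± 0.34 (adjusted p = 0.00541), BIP1 by 1.94 ± 0.41 (adjusted p = 0.00541), and the calreticulin genes LOC_Os07g14270 and LOC_Os04g32950 by 1.48 ± 0.32 and 1.43 ± 0.30. In the whole list 6 of 28 genes had a called difference, all 6 with the cold change above the hot one, and the list had 2 risers and 15 fallers in hot leaves and 2 risers and 12 fallers in warm leaves. Among 79 chaperone genes 8 differed upward and 1 downward, led by the small heat shock protein gene LOC_Os06g14240 (4.07 ± 0.94, adjusted p = 0.0106), with 3.9, 7.97, 17.5 and 16.6 CPM at cold 24 h, against 0.2, 0.487, 1.28 and 0.91 CPM at cold 6 h, and a call that was lost with voom weights. Cytosolic ribosomal protein genes had no riser and 41 fallers of 126 in hot leaves, and the difference passed the threshold for 1 of them. In plastid and mitochondrial ribosomal proteins 16 of 25 fell in hot leaves and 5 differences were called.

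Among the largest called differences in well-measured genes were those of a kinesin gene (LOC_Os04g53760, -4.94 ± 0.97, adjusted p = 0.00299), a prolyl oligopeptidase gene (LOC_Os04g47360, 4.17 ± 0.98, adjusted p = 0.0121) and an aspartic proteinase gene (LOC_Os12g39360, 3.70 ± 0.77, adjusted p = 0.00496). The kinesin gene, for a microtubule motor, had 0.921, 1.92, 1.17 and 0.767 CPM at cold 24 h, against 10.3, 14.4, 16.4 and 19.7 CPM at cold 6 h, while in hot leaves its geometric mean was 7.21 CPM at 24 h and 3.1 CPM at 6 h. The cold groups did not overlap in it. 4 other large differences depended on single libraries. That of the app1 gene LOC_Os03g56930 (-8.00 ± 2.26) lost its call without any 1 of 12 of the 16 libraries, with adjusted p up to 0.117, and kept it without hot 6 h replicate 3, hot 24 h replicate 2, cold 6 h replicate 1 or cold 24 h replicate 2. That of the gibberellin 2-beta-dioxygenase gene LOC_Os04g44150 (-4.84 ± 1.33) lost it without any 1 of 10, with adjusted p up to 0.084, and kept it without hot 6 h replicate 1 or 3, hot 24 h replicate 2, cold 6 h replicate 4 or cold 24 h replicate 1 or 2. That of the nucleotidyltransferase gene LOC_Os07g48170 (4.53 ± 1.27) lost it without hot 6 h replicate 1, 2 or 4, hot 24 h replicate 1 or 3, cold 6 h replicate 2 or cold 24 h replicate 1 or 2, with adjusted p up to 0.109. That of the proline-rich protein gene LOC_Os04g32850 (-4.28 ± 1.17) lost it without hot 6 h replicate 1, 2 or 4, hot 24 h replicate 1 or 3, cold 6 h replicate 2 or cold 24 h replicate 4, with adjusted p up to 0.0921.

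Across the 3 temperatures, 1890 genes rose and 1734 fell between 6 h and 24 h in cold, warm and hot leaves alike. LUX, FKF1 and the phosphorylmutase gene were among them. The fitted log2 change of LUX was -8.76 in cold, -8.97 in warm and -7.51 in hot leaves, values that depend on the 0.5 read offset. That of FKF1 was -7.04 in cold, -7.17 in warm and -6.97 in hot leaves. That of LOC_Os12g08760 was 6.41 in cold, 6.93 in warm and 7.39 in hot leaves. The cold change of FAD7 was 3.52, beside 4.57 in warm leaves and 5.14 in hot leaves, and its difference from hot leaves did not pass the threshold (adjusted p = 0.0995). The ammonium transporter LOC_Os04g43070 changed by 4.29 in cold leaves, beside 4.48 in warm leaves and 4.70 in hot leaves.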

How the data were processed

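The authors deposited 1 table of 19308 genes by 40 libraries, in log2 CPM as voom writes it: log2 of the read count plus 0.5 over a scaled library size. The submitters' processing notes name genome build IRGSP-1.0, the programs limma 3.20.1 and edgeR 3.4.2, featureCounts and Subread (both 1.5.0-p1), bedtools and SAMtools 1.1-26, and FastQC 0.11.2 with bcl2fastq. How strand was set when counting, how low genes were filtered and how libraries were scaled is not given in the sources used here, so reads of antisense partners and near-identical copies may not be separated. Reads were recovered from the log2 values (100% whole within 0.001). Reads in genes ran from 4738765 to 7280341 in the cold libraries.

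The deposited log2 values were fitted with limma 3.58.1 in R 4.3.3, over 40 libraries and 10 groups with trend and robust estimation, and p-values were adjusted by Benjamini-Hochberg over 19308 genes at 0.05. Contrasts were 24 h minus 6 h within each temperature, and the differences between temperatures. The script was checked on simulated counts. It recovered 93 of 100 genes changed 4-fold and 47 of 100 changed 2-fold, with 4 false calls, so many 2-fold changes were missed there. Chi-square tests of library pairs found no duplicates. The 32 gene lists, with locus numbers and symbols written from general knowledge or taken by product name, and the comparison itself were chosen with earlier results of these data known. The text names the 8 largest rises and falls (adjusted p under 0.05, groups not overlapping, mean log2 of at least 2, informative name), the 2 largest changes per list, the 4 largest differences each way and a fixed set of clock, cold and stress genes. Some other list members were chosen after their values were seen. Alternatives covered scaling, offset, filter, fit, weights, replicate block, lane and leaving out libraries. No sequences were used here.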

Additional observations from a re-analysis of the deposited data

Results flagged for a closer look

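In 192 groups of 4 values (96 named genes at cold 24 h and cold 6 h), 9 had a highest or lowest library that stood apart from the other 3 by Dixon's 95% limit, which is 4.69%, and chance alone flags about 1 group in 20. Of these, 5 were high values of cold 24 h: LOC_Os01g61410 (63.5 CPM in replicate 2, others 36.4 to 37.6), LOC_Os12g43130 (863 CPM in replicate 2, others 343 to 400.2), LOC_Os10g28000 (1.01 CPM in replicate 2, others 0.756 to 0.779), LOC_Os08g42350 (0.275 CPM in replicate 2, others 0.0688 to 0.0852) and LOC_Os04g49580 (28.4 CPM in replicate 1, others 18.6 to 19.9). A sixth was LOC_Os07g33997, with 28 CPM in cold 24 h replicate 1 and 2.29 to 2.96 CPM in the others. In cold 24 h replicates 1 to 4, LOC_Os10g28000 had 5, 5, 5 and 4 reads and LOC_Os08g42350 had 0, 1, 0 and 0 reads. The flag of LOC_Os10g28000 thus came from library scaling and that of LOC_Os08g42350 from 1 read. Low values were found in cold 24 h replicate 1 for LOC_Os03g18070 (265 CPM, others 341 to 359) and LOC_Os04g47360 (646 CPM, others 1522 to 1691), and in cold 6 h replicate 2 for LOC_Os07g48170 (2.16 CPM, others 6.06 to 6.74).

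The change between 6 h and 24 h differed between cold and hot leaves, by limma's test of the difference, in 20 of the 96 genes examined. The 96 include 4 genes each way that were named because this same test called them, so the count was raised by the choice. Over all 19308 genes the test called 806 (4.17%). Other list members named in the report, among them ZTL1, ZTL2, the sucrose-phosphate synthase gene and both calreticulin genes, also differed and are given there. The cold change was above the hot one, as a log2 difference, by 1.14 in LOC_Os06g05110, 1.62 in LOC_Os06g50300 (GRP94), 1.68 in LOC_Os03g60100, 1.93 in LOC_Os03g21900, 1.94 in LOC_Os02g02410 (BIP1), 3.70 in LOC_Os12g39360, 4.07 in LOC_Os06g14240, 4.17 in LOC_Os04g47360, 4.31 in LOC_Os10g21312 and 4.53 in LOC_Os07g48170. It was below the hot one, with differences of -1.70 in LOC_Os01g50460, -2.29 in LOC_Os12g43130, -3.01 in LOC_Os07g22930 (GBSSII), -3.12 in LOC_Os11g01340, -3.28 in LOC_Os08g06110 (LHY), -4.25 in LOC_Os03g53220, -4.28 in LOC_Os04g32850, -4.84 in LOC_Os04g44150, -4.94 in LOC_Os04g53760 and -8.00 in LOC_Os03g56930.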

How the results depend on the processing

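The count of genes changed between cold 24 h and cold 6 h was 5725, and 4843 to 5353 with 1 of the 8 libraries left out. It was 5409 with lane as a term and 3646 with a fold change of at least 2 required as well. The count of differences from warm leaves was 0 under each alternative that kept all libraries, and 0 to 1 with 1 of 16 left out. The count of differences from hot leaves was 806, 537 with only the groups compared, 466 to 2071 with 1 of 16 libraries left out, and 1509 without both hot 24 h libraries of lowest correlation, a choice made after seeing the data, as was division by total reads. Same-numbered cold libraries deviated together with correlations of 0.0655, -0.115, -0.0432 and -0.00568, so the numbers were not taken as pairs. With the replicate block the counts were 5805, 0 and 795. Of 956 values of named genes under the alternatives that kept all libraries or removed those 2, 932 kept direction and side of the threshold, 21 lost the call, 2 gained it and 1 changed sign. With single libraries left out, 762 of 832 stayed, 67 lost the call and 3 changed sign. All 4 sign changes were of DREB1A (LOC_Os09g35030 log2 change, cold), uncalled throughout at -0.23, which was 0.18 with log2 of CPM plus 1, 0.18 without cold 6 h replicate 2, 0.10 without cold 24 h replicate 3 and 0.77 without cold 24 h replicate 4, with -1.05 to 0.77 over the single libraries left out. Of list medians, 9 of 319 moved by more than the spread between libraries under those alternatives, 7 of the 9 with division by total reads, and 4 of 256 with single libraries left out. Depth limited the 24 h level of genes with few reads, among them LUX and LOC_Os01g65130.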

Other observations

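Within the cold 24 h group, several genes that fell were uneven between libraries in a like way, as was noticed after their values were seen. FKF1 had 8.71, 11.8, 1.03 and 1.11 CPM in replicates 1 to 4, PRR59 68.5, 89.9, 18.8 and 25.8 CPM, PRR95 467, 431, 167 and 221 CPM, PRR1 71.9, 124, 18.5 and 41.9 CPM, the FAD-dependent oxidoreductase gene LOC_Os07g34570 123, 177, 26.2 and 24 CPM and the neutral invertase gene LOC_Os01g22900 102, 227, 19 and 22.9 CPM. In each of them replicates 1 and 2 stood above replicates 3 and 4. The order was not limited to genes that fell. LOC_Os03g10100 (135, 65.3, 9.56 and 11.7 CPM) and LOC_Os06g45040 (67.1, 88.1, 29.8 and 49 CPM) rose and had it too. LOC_Os07g28040, which also rose, did not (90.3, 78, 120.3 and 105 CPM). How many genes had this order was not counted. The morning gene LHY had 2979, 1985, 1846 and 2226 CPM and GI 876, 594, 519.7 and 743 CPM in the same libraries, without that order. At cold 6 h the libraries were close together in FKF1, with 386, 487, 423 and 443 CPM, and in PRR95, with 1859, 2051, 1735 and 1618 CPM. All 4 cold 24 h libraries were sequenced in lane 4, and the cause of the order was not tested.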
